A study of Mus musculus with 16 samples.

Results

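The genes described here write, copy and remove 5-methylcytosine in the genome of 46C mouse embryonic stem cells (ESCs). The 9 members were chosen by name and are the DNA methyltransferase genes Dnmt1, Dnmt3a and Dnmt3b, their partners Uhrf1 and Dnmt3l, the TET dioxygenase genes Tet1, Tet2 and Tet3, and the glycosylase gene Tdg. All 9 were found in the count table of 46983 genes, of which 29364 had a count, and all 9 were among the 12805 genes with enough reads to be tested. 46C is a 129Ola line with GFP at the Sox1 locus, grown with LIF and knockout serum replacement. An siRNA against RAM, or a non-targeting one as control, was transfected and the cells were lysed 48 hr later in cycloheximide, which holds ribosomes on the mRNA. RAM, encoded by Ramac, is the activating subunit of the mRNA cap methyltransferase RNMT. From each culture 10% of the extract was kept as input, and the polysomal fractions 17 to 22 of a sucrose gradient were pooled, which gave 4 groups (input and polysomes, with each siRNA) of 4 replicates from separate transfection occasions. Both siRNA groups carried the Sox1-GFP allele, and no untransfected cells are compared here.

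DNA methylation is copied after replication when UHRF1 binds hemimethylated CpG sites and brings in DNMT1. New methylation is set by DNMT3A and DNMT3B, and DNMT3L, which has no catalytic activity of its own, stimulates both. TET enzymes oxidise 5-methylcytosine, and TDG excises the oxidised bases so that base excision repair restores an unmodified cytosine. Mouse ESCs are known to express TET1 and TET2, and to express DNMT3L, which most adult tissues lack.

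The gene that fell past the threshold in input (Uhrf1), its partner Dnmt1 and the gene that rose (Dnmt3l) are shown by the sequence around an annotated start, since their start sites differ in base composition. The windows are from RefSeq on GRCm38.p6, run 5′ to 3′ from 250 bases before to 50 bases after a start, and capitals mark TTTNNCGC, a core of E2F sites, or CCAAT, on either strand (matches may overlap). The window of Dnmt1, chr9:20952574-20952873 on the minus strand, holds 33 CG and the E2F letters TTTGGCGC, TTTTTCGC and TTTCGCGC.
Dnmt1: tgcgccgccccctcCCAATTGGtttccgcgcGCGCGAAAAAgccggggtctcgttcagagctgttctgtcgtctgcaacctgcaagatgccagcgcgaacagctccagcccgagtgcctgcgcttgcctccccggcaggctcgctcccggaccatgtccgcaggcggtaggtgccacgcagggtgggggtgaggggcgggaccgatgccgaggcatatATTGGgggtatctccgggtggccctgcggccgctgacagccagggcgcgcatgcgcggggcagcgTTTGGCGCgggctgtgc
The window of Uhrf1, chr17:56304063-56304362 on the plus strand, also holds 33 CG, with the letters TTTCGCGC.
Uhrf1: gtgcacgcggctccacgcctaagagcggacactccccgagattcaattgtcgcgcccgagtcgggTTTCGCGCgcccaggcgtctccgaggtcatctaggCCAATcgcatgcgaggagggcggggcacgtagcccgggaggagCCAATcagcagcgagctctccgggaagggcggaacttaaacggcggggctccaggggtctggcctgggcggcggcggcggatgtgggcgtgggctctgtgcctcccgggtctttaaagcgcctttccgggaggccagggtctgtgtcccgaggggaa
The window of Dnmt3l, chr10:78055085-78055384 on the plus strand, holds 3 CG and none of these letters.
Dnmt3l: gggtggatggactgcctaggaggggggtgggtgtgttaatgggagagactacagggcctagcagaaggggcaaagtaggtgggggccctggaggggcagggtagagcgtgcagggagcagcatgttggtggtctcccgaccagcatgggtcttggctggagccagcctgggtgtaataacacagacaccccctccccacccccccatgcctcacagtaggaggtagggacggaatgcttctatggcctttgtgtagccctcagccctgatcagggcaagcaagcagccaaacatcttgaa
Of the 9 members only Dnmt1 and Uhrf1 held TTTNNCGC in the window chosen, against 5.17% of 32851 RefSeq windows. CCAAT stood in the windows of Dnmt1, Uhrf1, Tet3 and Tdg, against 37.4%, and the median window held 7 CG. Both motifs were chosen with earlier results of these data known, so these shares are not independent evidence, and a role of E2F was not tested. The window was the one with the most annotated transcript starts within 50 bases, among 3 windows for Dnmt1, 2 for Uhrf1 and 3 for Dnmt3l, and a further Dnmt1 transcript starts inside its window. Within 50 bases of the start shown began 2 of 7 annotated transcripts of Dnmt1, 2 of 7 of Uhrf1 and 3 of 8 of Dnmt3l. The windows may therefore lie inside the gene for other transcripts, and TTTGGCGC of Dnmt1 lies after the start shown. Which starts these cells use was not measured.

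Libraries held 16647523 to 20147833 counts. Ramac had 10.6, 10.1, 10.7 and 11.6 CPM (counts relative to the library total, with TMM scaling) in control input and 3.10, 2.66, 3.10 and 3.16 in RAM siRNA input, with no overlap (log2 fold change -1.84, SE 0.11, adjusted p = 7.24e-06 by the quasi-likelihood test of edgeR with Benjamini-Hochberg adjustment). The 8 pluripotent cell markers summed to 3972 to 4326 CPM in control input and 3405 to 3932 in RAM siRNA input, while the sums of 4 neural, 7 mesoderm and endoderm, and 5 fibroblast markers were at most 91.6, 22.0 and 28.4 CPM in input, with Postn below 0.3 CPM. Of the 8 pluripotent markers 2 were lower in input without a replicate block (Nanog and Esrrb, whose calls were lost in 5 and 6 of 8 fits without a library) and 7 with it, where 5.94% and 19.0% of all genes were lower. Of 3 tested mesoderm and endoderm markers 1 was higher without the block (Gata6, a call lost in 2 of 8 such fits), and with it Gata6 was higher and Eomes lower. Of 4 neural markers 0 were called without the block, and 1 was lower and 1 higher with it. Of 2 tested fibroblast markers 0 were called without the block and 1 was higher with it. Of all genes 6.95% and 20.3% were higher without and with the block. In control and RAM siRNA input the neural sums were 71.3 to 83.3 and 77.4 to 91.6 CPM, and the fibroblast sums 16.8 to 19.7 and 18.7 to 28.4 CPM. The polysome library of RAM siRNA replicate 2 stood apart. Across genes, the log2 ratio of polysomes to input fell with transcript length in the other 7 cultures (Spearman rho between -0.17 and -0.52) and not in that one (rho 0.02). Fitted log2 values of the members without the block that rest on polysome RAM siRNA libraries are therefore given with and without it. Fits with a replicate block are given only with that library included. In bulk libraries, fewer cells with a transcript and less transcript per cell cannot be told apart.

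In control input, the members spanned the range from abundant to scarce transcripts. Levels were compared as CPM per kb of exon, as mean ± SD of 4 libraries, with the percentile among 12777 tested genes with a length. Uhrf1 was at 70.4 ± 4.22 (percentile 95), above the other 8 members by more than the spread. Tet1 at 43.5 ± 8.09, Dnmt1 at 39.4 ± 2.15 and Dnmt3l at 33.4 ± 5.52 followed, and neighbours among these 3 differed by less than their spread. Tet2 at 16.02 ± 1.86 and Dnmt3b at 14.4 ± 2.70 did not differ beyond their spread either. Dnmt3a at 4.63 ± 0.704, Tdg at 3.35 ± 0.132 and Tet3 at 0.713 ± 0.0391 (percentile 9.42) came last, and the ranges of these 3 did not overlap. Thus per kb of exon the maintenance pair and Tet1 stood near the top, and Tet3 was at the bottom. The order of the middle members depended on the length used, since per kb of the longest transcript Dnmt3l (54.8) came before Dnmt1 (49.5) and Tet1 (46.7). The low place of Dnmt3a did so too, since per kb of coding length it was at 28.3 and Dnmt3b at 28.6. Their mean CPM was 77.0 and 73.7.

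The first comparison asked which of these transcripts changed in the cytoplasmic extract when RAM was reduced. In input, 1 member fell (Uhrf1) and 1 rose (Dnmt3l) past the threshold without a replicate block, and with the replicate number as a block 4 fell (Dnmt1, Uhrf1, Tet1 and Tet2) and 2 rose (Dnmt3a and Dnmt3l). Over all tested genes, 5.94% were lower and 6.95% higher without the block, and 19.0% were lower and 20.3% higher with it, so a count of 1 in each direction among 9 is near the background. With the block the 4 lower members were above the background share and the 2 higher members near it, and the list as a whole was not tested. The median log2 fold change was -0.03 over the members and 0.00 over all genes. The blocked value is given where it changed a call, since libraries of one replicate number deviated together.

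Uhrf1, the reader of hemimethylated CpG, had 285, 304, 287 and 324 CPM in control input (replicates 1 to 4) and 212, 234, 220.3 and 266 CPM in RAM siRNA input. Every RAM siRNA library was below every control library. The fitted log2 fold change was -0.37 (SE 0.08), a level 0.775 times that of the control, with an adjusted p of 0.0133 by the edgeR quasi-likelihood test and 7.7e-07 with the replicate block. The call was lost without RAM siRNA replicate 1 (adjusted p = 0.0533, edgeR).

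Dnmt1, the maintenance methyltransferase, had 296, 305, 268 and 292 CPM in control input and 255, 252, 223 and 266 CPM in RAM siRNA input. The groups did not overlap, with 266 CPM as the highest RAM siRNA value and 268 CPM as the lowest control value. Such groups without overlap were found for 2 of 9 members and for 18.0% of the genes tested. The log2 fold change was -0.22 (SE 0.08), which missed the threshold without the block (adjusted p = 0.0734, edgeR) and passed it with the block (adjusted p = 2.69e-04) and by DESeq2 (adjusted p = 0.0298). In all 4 same-numbered pairs the RAM siRNA library was the lower. Without RAM siRNA replicate 4 Dnmt1 passed the threshold without the block as well (adjusted p = 0.0285, edgeR).

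Dnmt3l, the cofactor of the de novo enzymes, had 106, 96.9, 78.5 and 117 CPM in control input and 146, 148, 115 and 179.6 CPM in RAM siRNA input. Its groups overlapped only in that the lowest RAM siRNA library, replicate 3, lay just under the highest control library, replicate 4. It was higher with RAM siRNA by a log2 fold change of 0.56 (SE 0.14), a level 1.47 times that of the control, with an adjusted p of 0.0186 by edgeR and 6.9e-09 with the block. Each of 2 libraries decided the unblocked call, since without RAM siRNA replicate 1 (adjusted p = 0.0517, edgeR) or control replicate 2 (adjusted p = 0.0549) it missed the threshold. Dnmt3l shares 67 exon bases with Aire on the other strand, and the strand setting of the counting is not given in the sources used here. The same holds for Tdg (367 exon bases shared with Glt8d2), Dnmt3a (133 with Dnmt3aos) and Tet2 (43 with Gm42567).

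Dnmt3a, a de novo methyltransferase, had 79.9, 65.0, 71.0 and 92.0 CPM in control input and 95.6, 82.2, 80.4 and 130.0 CPM in RAM siRNA input. These groups overlapped, and every pair of the same number was higher with RAM siRNA. The log2 fold change of 0.33 (SE 0.15) had an adjusted p of 0.162 by edgeR without the block and 3.65e-05 with it. Dnmt3b, the other de novo enzyme, had 76.7, 72.3, 56.1 and 89.6 CPM in control input and 70.4, 75.2, 59.5 and 86.3 CPM in RAM siRNA input. Its groups covered the same range, with a log2 fold change of -0.02 (SE 0.13, adjusted p = 0.946 by edgeR and 0.84 with the block). The 3 Dnmt3 genes thus had different values in the same libraries.

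**Figure D1:**
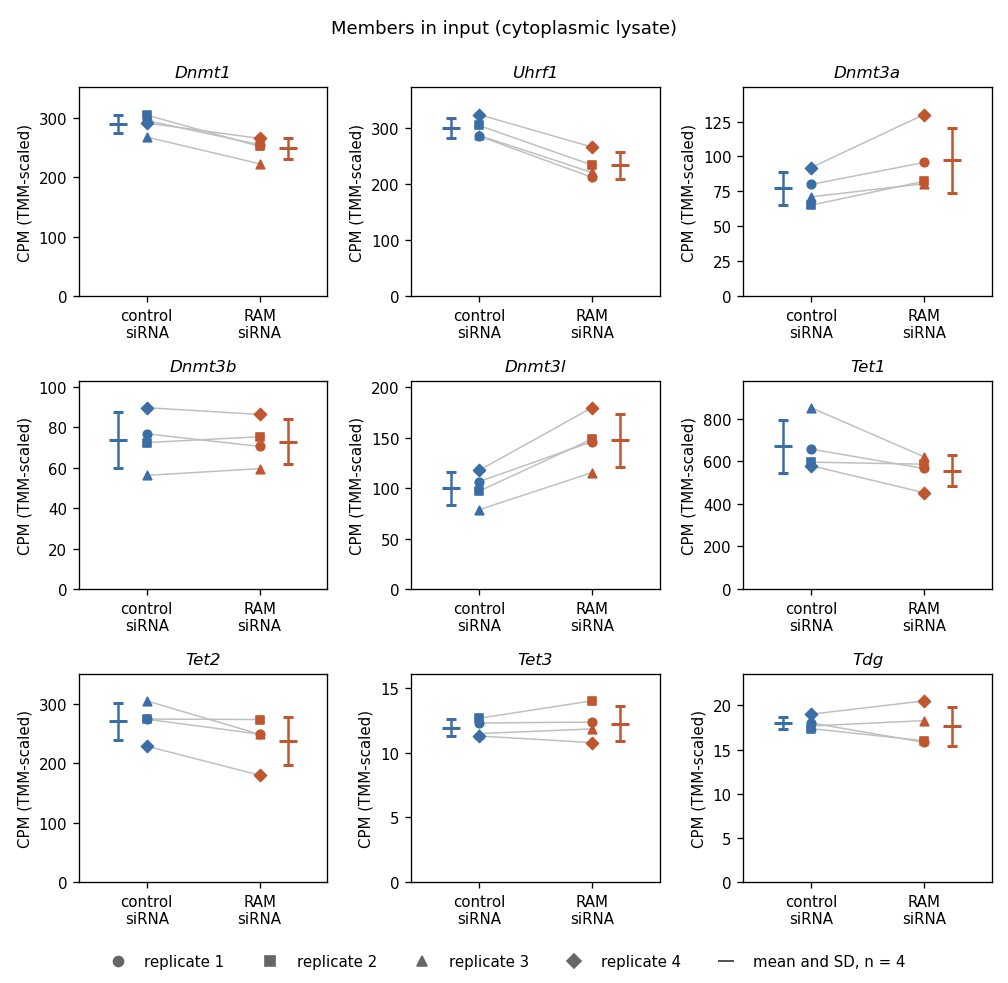
CPM of the 9 members in the input libraries (vertical axes, linear and from 0, 1 panel a gene) for control and RAM siRNA. Symbols are libraries, grey lines join the same replicate number, and the bars beside them are the mean and SD of 4 libraries; Uhrf1 and Dnmt1 are lower in every RAM siRNA library than in any control library, and Dnmt3l overlaps only at 115 against 117 CPM.

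Tet1, the most abundant TET gene here, had 658, 597, 852 and 579.9 CPM in control input and 567, 587, 622 and 453 CPM in RAM siRNA input. The RAM siRNA library was lower in all 4 pairs, although the groups overlapped because control replicates differed widely. The log2 fold change was -0.27 (SE 0.13), with an adjusted p of 0.206 by edgeR and 6.16e-04 with the block. Tet2, which acts beside TET1 in ESCs, had 274, 274, 305 and 228 CPM in control input and 249, 273, 248 and 179.7 CPM in RAM siRNA input. It too was lower in all 4 pairs, by 0.19 on the log2 scale in the fit (log2 fold change -0.19, SE 0.13, adjusted p = 0.364 by edgeR and 0.004 with the block). Tet3 had 11.3 to 12.6 CPM in control input and 10.8 to 14.0 CPM in RAM siRNA input (log2 fold change 0.03, SE 0.10, adjusted p = 0.863 by edgeR). Tdg, which removes oxidised methylcytosine, had 17.4 to 19.0 CPM and 15.8 to 20.5 CPM (log2 fold change -0.03, SE 0.10, adjusted p = 0.868 by edgeR). Tet3 and Tdg passed the threshold in neither fit.

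Ratios of counts within a library do not depend on how libraries are scaled, and they show how the members stood to each other. Dnmt3l over Dnmt3b was 1.39, 1.34, 1.40 and 1.31 in control input and 2.07, 1.97, 1.94 and 2.08 in RAM siRNA input, so that the cofactor went from 1.36 ± 0.0406 to 2.02 ± 0.0711 counts for each count of the enzyme (mean ± SD, n = 4). The spread within each group was small beside the gap. Dnmt3l over Dnmt1 was 0.359, 0.317, 0.293 and 0.402 in control input and 0.571, 0.588, 0.517 and 0.676 in RAM siRNA input, again without overlap. Dnmt3a over Dnmt1 was 0.213 to 0.315 in control input and 0.326 to 0.489 in RAM siRNA input, and the gap between these groups was narrow. Uhrf1 over Dnmt1 overlapped between the groups, with 0.964 to 1.11 in control input and 0.8289 to 0.999 in RAM siRNA input. In polysomes, Dnmt3l over Dnmt3b was 2.94, 2.26, 2.88 and 2.57 in control and 4.46, 3.42, 4.30 and 4.40 in RAM siRNA libraries, which did not overlap either. Other ratios did overlap, namely Dnmt3l over Dnmt3a (1.11 to 1.49 in control and 1.38 to 1.81 in RAM siRNA input, and also in polysomes), Dnmt3a over Dnmt3b in both fractions, and Dnmt3l over Dnmt1 in polysomes (1.20 to 2.83 and 1.49 to 4.52). Dnmt3a over Dnmt1 (0.395 to 1.28 and 0.375 to 1.66) and Uhrf1 over Dnmt1 in polysomes, and Tet1 over Tet2 in both fractions, overlapped as well. Single genes had groups without overlap for 18.0% of those tested in input and 6.56% in polysomes. The share of all gene pairs whose ratios separate in this way was not determined. No test was made on these ratios, which follow from the counts compared above.

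**Figure D2:**
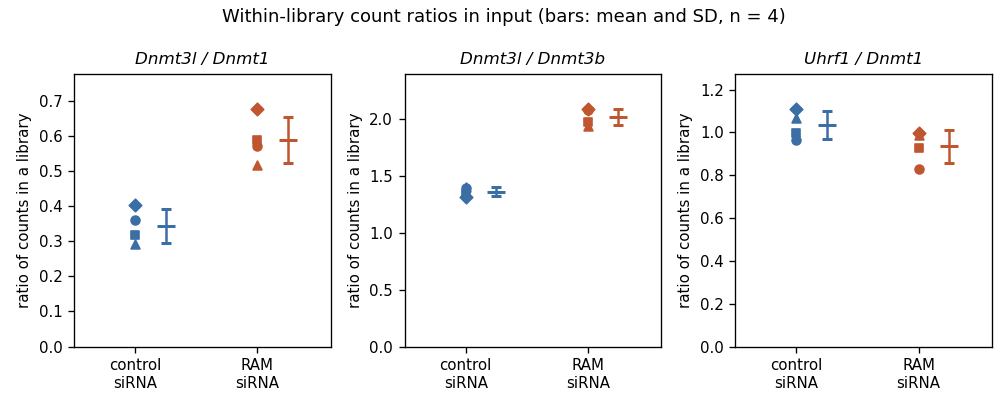
Ratios of counts between 3 pairs of members within each input library (vertical axes, linear and from 0, no unit), for control and RAM siRNA. Symbols are libraries and bars are the mean and SD of 4; Dnmt3l over Dnmt3b lies at 1.31 to 1.40 in control and at 1.94 to 2.08 in RAM siRNA input, and Uhrf1 over Dnmt1 overlaps between the groups.

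The second comparison asked the same of the mRNA on polysomes. In polysomes, 0 of 9 members passed the threshold in either direction by the edgeR quasi-likelihood test without the block, where 0.0234% of all genes were lower and 0% higher. At an unadjusted p under 0.05 there was 1 member (Dnmt3l), against 1152 of the 12805 genes, and DESeq2, limma-voom and the edgeR likelihood ratio test called 0 members. With the replicate block 0 members were lower and 1 was higher (Dnmt3l), against 4.97% and 9.68% of all genes. The polysome libraries of one group differed more than the input libraries did, and replicate 2 of both siRNAs had the highest values of Dnmt1, Uhrf1, Dnmt3b, Tet1, Tet2 and Tet3 in its group.

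Dnmt3l on polysomes had 235, 195, 149 and 194 CPM in control and 295, 361, 182 and 291 CPM in RAM siRNA libraries. It was higher with RAM siRNA in all 4 pairs, while the groups overlapped through RAM siRNA replicate 3. The log2 fold change was 0.59 (SE 0.21, adjusted p = 0.412 by edgeR) and 0.57 (SE 0.12, adjusted p = 0.00534) with the block. Without the polysome library that stood apart it was 0.46 (SE 0.20, adjusted p = 0.341 by edgeR without the block).

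Dnmt1 on polysomes had 83.3, 162, 61.7 and 78.6 CPM in control and 70.0, 243, 49.7 and 64.5 CPM in RAM siRNA libraries. RAM siRNA was lower in the pairs 1, 3 and 4 and higher in pair 2. Its log2 fold change was therefore 0.18 (SE 0.50, adjusted p = 0.986 by edgeR) with all libraries and -0.59 (SE 0.30, adjusted p = 0.405) without RAM siRNA replicate 2. Uhrf1 on polysomes had 155, 215, 119 and 159 CPM in control and 99.5, 253, 82.2 and 114 CPM in RAM siRNA libraries, which is the same pattern of pairs. Its log2 fold change was -0.20 (SE 0.34, adjusted p = 0.973 by edgeR) with all libraries, -0.30 with the block (adjusted p = 0.153) and -0.65 (SE 0.21, adjusted p = 0.217) without RAM siRNA replicate 2. Thus no fall of the maintenance pair on polysomes passed the test, and its size depended on 1 library.

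The other members on polysomes had wide errors. Dnmt3a had 62.1 to 101 CPM in control and 72.6 to 107 CPM in RAM siRNA libraries (log2 fold change 0.25, SE 0.20), and Dnmt3b had 51.6 to 86.2 and 42.4 to 106 CPM (-0.02, SE 0.26). Tet1 had 195, 214, 101 and 89.2 CPM in control and 172, 297, 103 and 65.7 CPM in RAM siRNA libraries (log2 fold change 0.13, SE 0.45). The order of the replicates was alike in both groups, with replicates 1 and 2 above 3 and 4. Tet2 had 60.5 to 173 and 40.7 to 226 CPM (log2 fold change 0.08, SE 0.53), and both TET genes turned negative without RAM siRNA replicate 2, at -0.33 (SE 0.38) for Tet1 and -0.61 (SE 0.39) for Tet2. Tet3 was scarce on polysomes with 2.19 to 3.22 and 1.48 to 5.48 CPM (log2 fold change 0.38, SE 0.35), and Tdg had 18.5 to 23.3 and 17.6 to 21.0 CPM (log2 fold change -0.07, SE 0.14). Without RAM siRNA replicate 2 the log2 fold changes were 0.25 for Dnmt3a, -0.28 for Dnmt3b, 0.01 for Tet3 and -0.01 for Tdg, and none of the 9 members passed the threshold. The share of all genes that passed in that fit is not given here.

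**Figure D3:**
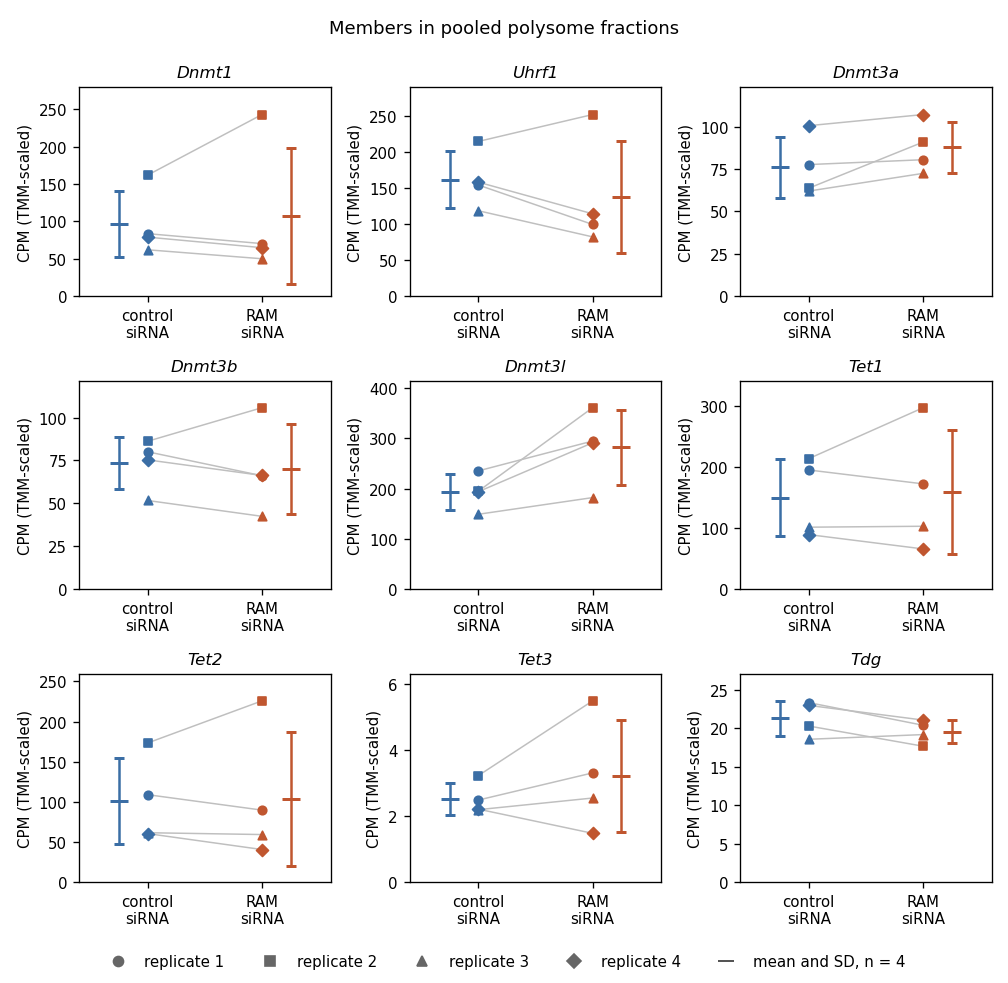
CPM of the 9 members in the polysome libraries (vertical axes, linear and from 0, 1 panel a gene) for control and RAM siRNA. Symbols are libraries, grey lines join the same replicate number, and bars are the mean and SD of 4; Dnmt1 reaches 243 CPM in RAM siRNA replicate 2 and lies at 49.7 to 70.0 CPM in the other 3 RAM siRNA libraries.

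**Figure D4:**
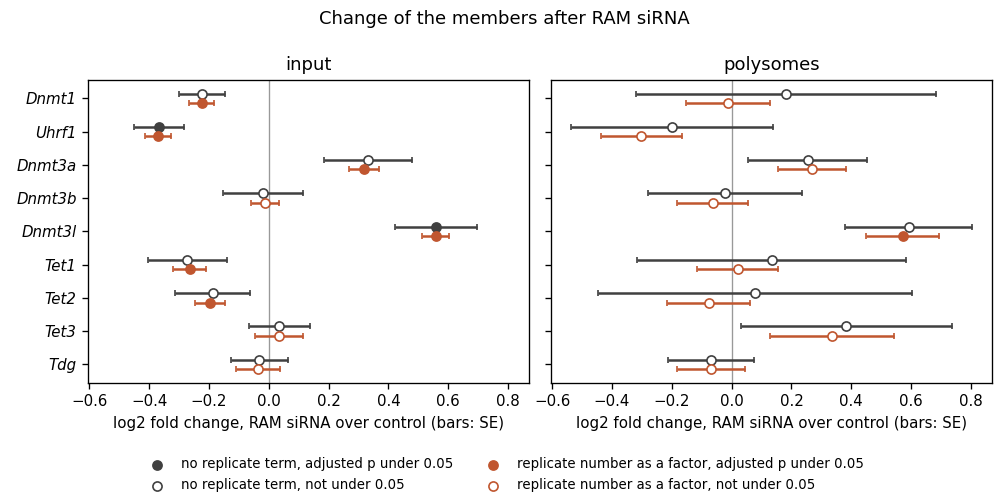
Log2 fold change of RAM siRNA over control for the 9 members in input and in polysomes (horizontal axes), each point an edgeR estimate with a bar of 1 SE, grey without and orange with the replicate number as a factor, filled where the adjusted p was under 0.05. Input values lie between -0.37 (Uhrf1) and 0.56 (Dnmt3l), and the unblocked polysome values have wider errors, up to 0.53 for Tet2.

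The third comparison set polysomes against input within each siRNA, which gives the relative polysome loading of each mRNA. In control cells 5 members were under-represented on polysomes (Dnmt1, Uhrf1, Tet1, Tet2 and Tet3) and 1 was over-represented (Dnmt3l), with the same 6 called with the block. Over all genes 34.3% were lower and 33.1% higher, so the members held more lower and fewer higher calls than the background share, which was not tested, and groups did not overlap for 6 of 9 members and 61.0% of all genes. The members' median log2 ratio was -0.92 and that of all genes was -0.00.

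Of the TET genes, Tet3 had log2 ratios of polysomes to input of -2.10, -1.82, -2.15 and -2.12 in control cultures 1 to 4, which in the fit was -2.27 (SE 0.16, adjusted p = 6.5e-07 by edgeR). Tet1 had -1.75, -1.48, -3.07 and -2.69 (fit -2.20, SE 0.27, adjusted p = 3.26e-05 by edgeR). Tet2 had -1.33, -0.66, -2.30 and -1.91 (fit -1.45, SE 0.30, adjusted p = 0.00106 by edgeR). All 3 TET mRNAs were under-represented in every control culture, Tet1 and Tet2 more so in cultures 3 and 4.

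Among the methyltransferases and their partners the ratios spread from strongly negative to positive. Dnmt1 had -1.82, -0.92, -2.11 and -1.89 (fit -1.63, SE 0.25, adjusted p = 1.63e-04 by edgeR), and Uhrf1 had -0.88, -0.50, -1.27 and -1.03 (fit -0.92, SE 0.17, adjusted p = 4.62e-04). Both members of the maintenance pair were least reduced in culture 2. Dnmt3l had 1.14, 1.00, 0.92 and 0.72 (fit 0.92, SE 0.16, adjusted p = 3.95e-04 by edgeR), and was above 0 in every culture. Dnmt3a (fit -0.05, SE 0.17, adjusted p = 0.809), Dnmt3b (-0.04, SE 0.18, adjusted p = 0.84) and Tdg (0.20, SE 0.11, adjusted p = 0.131) did not pass the edgeR threshold.

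Transcript length varied with polysome loading over all genes, so the members are set beside genes of their length. The median log2 ratio in control cells was 0.41 for the 2900 genes with a longest transcript under 2 kb, 0.24 for the 5122 genes of 2 to 4 kb, -0.28 for the 2933 genes of 4 to 6 kb and -0.99 for the 741 genes of 8 kb or more, whose 10th to 90th percentiles ran from -2.25 to 0.12. Dnmt3l, the shortest member at 1822 bases, was above the median of its length, and Uhrf1 at 3586 bases and Dnmt1 at 5870 bases were below theirs. Tet1 (14369 bases) and Tet3 (10904 bases) lay near or past the 10th percentile of long genes, whereas Dnmt3a, at 9685 bases, lay close to the 90th. The part of length in the members' ratios was not tested.

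In RAM siRNA cells the same contrast called 4 members lower (Dnmt1, Tet1, Tet2 and Tet3) and 1 higher (Dnmt3l) without the block, and 5 lower, with Uhrf1 added, and 1 higher with it. Over all genes 25.9% were lower and 27.3% higher without the block, and 29.9% lower and 28.8% higher with it. Groups did not overlap for 3 members and 46.6% of all genes. Dnmt1 had log2 ratios of -1.86, -0.06, -2.16 and -2.03 in RAM siRNA cultures 1 to 4, and culture 2 alone was near 0. Its fitted value was -1.23 (SE 0.43, adjusted p = 0.0340 by edgeR, 0.00653 with the block), and -2.02 (SE 0.17) without the polysome library that stood apart. Uhrf1 had -1.08, 0.11, -1.42 and -1.21, again with culture 2 apart. The fit gave -0.77 (SE 0.31, adjusted p = 0.0586 by edgeR, 0.0176 with the block), and -1.24 (adjusted p = 3.2e-05) without that library. Dnmt3l had 1.01, 1.28, 0.66 and 0.70, close to its control values (fit 0.94, SE 0.22, adjusted p = 0.00511 by edgeR, and 0.80 without that library). Tet1 had -1.71, -0.98, -2.59 and -2.78 (fit -1.81, SE 0.39, adjusted p = 0.00313 by edgeR), and the fits of Tet3 and Tet2 were -1.93 (SE 0.32) and -1.20 (SE 0.44, adjusted p = 0.0414). Without the same library the fits were -2.29 for Tet1, -2.32 for Tet3 and -1.91 for Tet2 (SE 0.25, adjusted p = 2.43e-05 by edgeR), so that Tet2, like Dnmt1 and Uhrf1, moved by more than 1.5 times. Dnmt3a, Dnmt3b and Tdg passed neither with it (-0.14, -0.06 and 0.16) nor without it (-0.16, -0.32 and 0.19). Dnmt1 and Tet2 each missed the threshold when any 1 of 7 libraries was left out, all but polysome RAM siRNA replicate 2.

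The change of polysome loading between the siRNAs, tested as an interaction over all 16 libraries, passed the threshold for 0 of 9 members and 0% of all genes by the edgeR quasi-likelihood test, with 0 members and 100 genes at an unadjusted p under 0.05. DESeq2 and the likelihood ratio test called 1 gene each and limma-voom 0, none of them a member. Estimates for the members ran from -0.13 (Dnmt3a, SE 0.27) to 0.37 (Dnmt1, SE 0.56), and that of Dnmt3l was -0.01 (SE 0.29). Those of Uhrf1, Tet1, Tet2 and Tet3 were 0.13, 0.36, 0.23 and 0.30, and those of Dnmt3b and Tdg were -0.05 and -0.09. Without polysome RAM siRNA replicate 2 the estimates were -0.43 for Dnmt1 (SE 0.32), -0.35 for Uhrf1 (SE 0.23), -0.13 for Tet1, -0.49 for Tet2 and -0.09 for Tet3, so the sign of these 5 depended on that library. For Dnmt3a, Dnmt3b, Dnmt3l and Tdg they were -0.14, -0.32, -0.16 and -0.05. With a replicate block within each fraction the errors were smaller, as for Dnmt1 (0.16, SE 0.17), Tet1 (0.24, SE 0.16) and Dnmt3l (-0.04, SE 0.13), and 2 genes passed the edgeR threshold, neither of them a member. A change of loading was not detected for any member in these fits. None of them pairs the input and polysome libraries of one culture, which share a lysate, and values of a fit that does are not given here.

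**Figure D5:**
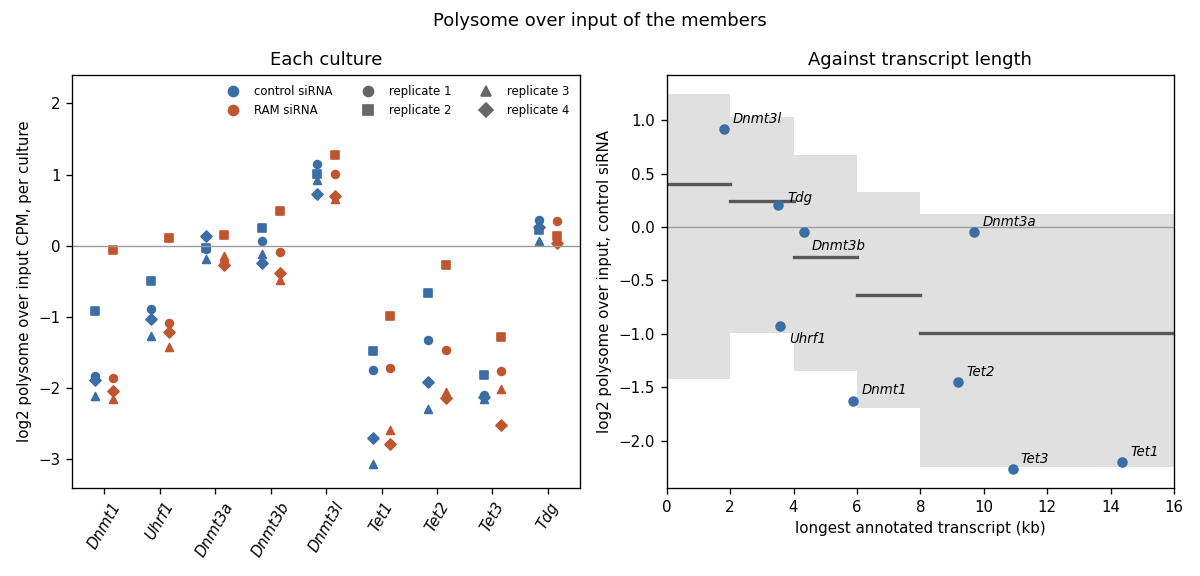
Left, log2 ratio of polysome to input CPM for each member (vertical axis), each symbol a culture; right, the fitted log2 ratio in control cells against the longest annotated transcript in kb, with the median (dark line) and the 10th to 90th percentiles (grey) of all tested genes in bins of length. Tet1, Tet2, Tet3 and Dnmt1 lie below 0 and Dnmt3l above 0 in all 8 cultures, and RAM siRNA culture 2 is the highest of its group for every member but Tdg.

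Over the 16 libraries the members fell into unlike patterns, described by Pearson's r of log2 CPM, which the difference between polysomes and input largely sets. Dnmt1 and Uhrf1 varied together (r = 0.96), as did Tet1 with Tet2 (r = 0.97) and with Tet3 (r = 0.97), while Dnmt1 and Dnmt3l ran opposite (r = -0.54). Among 9134 tested genes whose mean reached 10 CPM, the gene most like Dnmt1 was Prpf8 (r = 0.997), 1 of 854 genes above 0.9, that most like Uhrf1 was Upf1 (r = 0.974) and that most like Dnmt3l was Pex6 (r = 0.979). For Tet1 it was Nbeal1 (r = 0.995, 1 of 1183 above 0.9), for Tet2 Chd9 (r = 0.993, 1 of 922) and for Dnmt3b Xpo7 (r = 0.956). Dnmt3a with Pdzd4 (r = 0.843) and Tdg with Shoc2 (r = 0.882) had no gene above 0.9, and Tet3 was most like D5Ertd579e (r = 0.993, 1 of 1227 above 0.9 among 9135 genes). The nearest genes of Dnmt1 and the TET genes are thus single names from a large group with nearly the same pattern.

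Other genes of the pathway, from lists written with earlier results of these data known, are given for input, where 5.94% of all genes were lower and 6.95% higher without the block, and 19.0% and 20.3% with it. Of 7 partners of maintenance methylation 0 passed the edgeR threshold without the block, and 2 were lower and 1 higher with it. The 2 with the smallest p were Pcna, the sliding clamp of replication (log2 fold change -0.24, SE 0.09, adjusted p = 0.1004, with the block 2.45e-04), and Dppa3, which keeps UHRF1 off chromatin (-0.64, SE 0.30, adjusted p = 0.181, with the block 0.0163). Of 8 readers of methylated CpG 0 passed in either fit, with Zbtb4 at -0.31 (SE 0.22) and Zbtb33 at -0.19 (SE 0.14). Of 11 other base excision genes, which included glycosylase genes besides Tdg, 0 passed without the block. With the block 2 were lower and 2 higher. Among these were the ligase gene Lig3 (0.21, SE 0.07, adjusted p = 0.0523 by edgeR, with the block 6.01e-04) and the glycosylase gene Smug1 (-0.21, SE 0.08, adjusted p = 0.126, with the block 0.0227). With the block, the base excision list was thus near the background share in both directions.

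Of 9 genes of the methionine and folate cycles around S-adenosylmethionine, the methyl donor, 1 was lower without the block (5.94% of all genes). With it 3 were lower and 2 higher (19.0% and 20.3% of all genes). The 2 higher were Mat2a and Shmt2 (blocked log2 fold changes 0.18 and 0.19, adjusted p = 0.00236 and 0.00125 by edgeR). The gene lower without the block was Mthfd2, a mitochondrial folate enzyme, which fell from 238 ± 14.1 to 197 ± 9.82 CPM (mean ± SD, n = 4, log2 fold change -0.27, SE 0.07, adjusted p = 0.0258 by edgeR). The call of Mthfd2 was lost in 5 of the 8 fits that left out a library. It held without RAM siRNA replicate 4, control replicate 2 or control replicate 3. Of 9 regulators of the Dnmt3 genes and recruiters of heterochromatin, 1 was lower without the block, and 4 were lower and 1 higher with it, against the same shares. It was Prdm14, which represses Dnmt3b and Dnmt3l in ESCs, and it fell from 13.0 ± 0.844 to 9.11 ± 1.36 CPM (log2 fold change -0.51, SE 0.12, adjusted p = 0.0133 by edgeR). On polysomes Prdm14 had a log2 fold change of -0.53, with an adjusted p of 0.233 by edgeR without the block and 0.00955 with it. Prdm14 was lower and Dnmt3l higher in the same input libraries, while Dnmt3b had a log2 fold change of -0.02, and a link between these values was not tested.

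Germline genes known to be regulated by promoter methylation form the last list, which was chosen with the earlier results known, so its direction is not independent evidence. Not all were scarce, since Dazl and Hormad1 had 90.04 and 64.8 CPM in control input. In input 4 of 10 were higher and 0 lower without the block (6.95% of all genes were higher), and 8 were higher and 0 lower with it (20.3%), with a median log2 fold change of 0.38 against 0.00 over all genes. Their summed level was 232 to 277 CPM in control input and 367 to 398 CPM in RAM siRNA input, without overlap. Dazl, a germ cell RNA-binding protein, rose from 90.04 ± 7.32 to 164 ± 5.44 CPM (mean ± SD, n = 4, log2 fold change 0.87, SE 0.07, adjusted p = 6.13e-05 by edgeR). Taf7l, a germ cell TFIID subunit, rose from 16.3 ± 2.35 to 30.9 ± 4.40 CPM (0.92, SE 0.12, adjusted p = 6.19e-04), and Tex101, a germ cell surface protein, from 1.54 ± 0.206 to 3.89 ± 0.477 CPM (1.33, SE 0.17, adjusted p = 5.29e-04). Hormad1, a meiotic chromosome axis protein, rose from 64.8 ± 4.27 to 79.9 ± 7.66 CPM (0.30, SE 0.08, adjusted p = 0.0347), a call that held in 1 of the 8 fits that left out a library. The other 6 genes lay between -0.08 (Tex11) and 0.44 (Asz1). On polysomes 0 of the 10 passed without the block and 6 were higher with it, against 9.68% of all genes. The methylation of these promoters was not measured in the libraries used here, and the sums of pluripotent markers given above were lower in the same RAM siRNA libraries. The part of either in these values was not tested.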

How the data were processed

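RNA was sequenced from input and polysomes of 16 libraries. The authors mapped reads to GRCm38 with STAR 2.5.1b, counted them per gene with HTSeq and deposited raw counts without normalization or a filter. Annotation release and strand and overlap settings of the counting are not given in the sources used here. Samples were grouped by the labels and 0 columns belonged to other samples. A gene was tested if 10 or more of the 16 libraries had 1 CPM or more, which 12805 genes did. In R 4.3.3, edgeR 4.0.16 scaled libraries by TMM and gave the quasi-likelihood test, p-values were adjusted by Benjamini-Hochberg over these genes and the threshold was 0.05, without a replicate term. Whether the study's own fit had one is not stated in its methods, so the fit without it is one choice and the blocked fit is given beside it where calls differ. Polysome and input comparisons used the 8 libraries concerned and the interaction all 16. Log2 CPM used a prior count of 0.5. The pipeline was tested on simulated data.

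Same-numbered libraries deviated from their group means together (r over 9135 genes 0.40 to 0.80 in input, 0.63 to 0.94 in polysomes, 0.24 to 0.71 between polysomes and input), and the study describes separate occasions, so the replicate number pairs the samples and a fit with it as a block was run. Libraries of a group differed by more than counting noise (chi-square per gene 5.09 to 34.7 in input and 24.3 to 334 in polysomes), so none is a copy. With 16647523 to 20147833 counts per library, the member with the fewest reads was Tet3, with 25 to 96 counts in RAM siRNA polysomes.

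Named are the 9 members, Ramac, genes of 6 related lists past the threshold in input without the block (else the 2 with the smallest p), the gene most like each member, and markers. Members, lists and promoter motifs were chosen with earlier results of these data known. Eomes, Tex11, Asz1, Mat2a and Shmt2 were named after their values were seen. Lengths and coordinates are from GENCODE M21, and promoter windows from RefSeq. Alternatives were DESeq2 1.42.0, limma-voom (limma 3.58.1), the edgeR likelihood ratio test, RLE, upper-quartile and library-size scaling, no filter, filterByExpr, replicate blocks, all 16 libraries in one fit, pairs of replicates only, and each library left out.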

Additional observations from a re-analysis of the deposited data

Results flagged for a closer look

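Dnmt1 on polysomes of RAM siRNA replicate 2, with 242.8 CPM, lay far from the other 3 libraries of its group (49.7 to 70.0 CPM). Its gap to the nearest was 0.895 of the group's range, above Dixon's critical value for 4 samples. It was the 1 group of 36 checked (9 genes in 4 groups) that stood out in this way, and chance marks about 1 in 20 groups. Whether the library or the gene accounts for it was not tested.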

How the results depend on the processing

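The replicate block raised the members called to 6 in input (4 lower, 2 higher), 1 in polysomes and 6 in RAM siRNA loading, and changed no other call of a member. In input 4 members were called with no filter, 0 with all 16 libraries in one fit and 0 with replicates 3 and 4 only. With replicates 3 and 4 only the siRNA target Ramac also missed the threshold (log2 fold change -1.83, adjusted p = 0.17 by edgeR), so that fit cannot decide the members' calls. Its estimates were -0.33 for Uhrf1 and 0.59 for Dnmt3l. Loading in RAM siRNA cells had 3 with replicates 1 and 2 only. Leaving out a library gave 0 to 3 members in input, 6 to 7 in control loading and 3 to 6 in RAM siRNA loading. The share of all genes called is not given here for the fits with fewer libraries, no filter or all 16 libraries. Changes in these counts therefore cannot be told from gains or losses of calls over all genes. Over all genes, input calls went from 1651 to 5028 with the block, and polysome calls from 3 to 1875 with the block, 300 by DESeq2 and 200 by the likelihood ratio test. The cause was not tested.

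Signs turned for small values and for polysome and loading values with wide errors. With replicates 3 and 4 only, input gave -0.012 for Tet3 and 0.077 for Tdg, and polysomes -0.25 for Dnmt1, -0.11 for Tet1, -0.22 for Tet2, -0.055 for Tet3 and 0.0088 for Tdg. In polysomes Dnmt1 was -0.017 by voom and -0.014 with the block, Tet2 was -0.083 by voom, -0.077 with the block and -0.016 by library size, and Dnmt3b was 0.080 with replicates 1 and 2 only. In control loading Dnmt3a was 0.067 and 0.082, and Dnmt3b 0.077 and 0.088, with filterByExpr and no filter, and Dnmt3b was 0.10 with replicates 1 and 2 only. These filters and library-size scaling moved the median of all genes by up to 0.14 in control loading and between -0.12 and 0.13 in RAM siRNA loading. In RAM siRNA loading Dnmt3b was 0.042 with filterByExpr, 0.072 with no filter and 0.25 with replicates 1 and 2 only.

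For the change of loading, Dnmt3l was 0.026 by DESeq2, 0.026 with RLE, 0.014 with upper quartile, 0.037 with filterByExpr, 0.057 with no filter and 0.13 with replicates 1 and 2 only. Dnmt3b was 0.0019 with filterByExpr, 0.023 with no filter and 0.14 with replicates 1 and 2 only, which also gave 0.042 for Dnmt3a and 0.012 for Tdg. Replicates 3 and 4 only gave -0.10 for Dnmt1, -0.17 for Uhrf1 and -0.11 for Tet3.

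Leaving out a library, input values ran from -0.13 to 0.086 for Dnmt3b, -0.035 to 0.093 for Tet3 and -0.11 to 0.015 for Tdg. Polysome values ran from -0.59 to 0.56 for Dnmt1, -0.28 to 0.14 for Dnmt3b, -0.33 to 0.38 for Tet1 and -0.61 to 0.47 for Tet2. Control loading ran from -0.22 to 0.051 for Dnmt3a and -0.16 to 0.11 for Dnmt3b, and RAM siRNA loading from -0.25 to 0.038 and -0.32 to 0.10. The change of loading ran from -0.43 to 0.74 for Dnmt1, -0.35 to 0.31 for Uhrf1, -0.24 to 0.10 for Dnmt3a, -0.32 to 0.13 for Dnmt3b, -0.16 to 0.15 for Dnmt3l, -0.13 to 0.62 for Tet1, -0.49 to 0.62 for Tet2, -0.088 to 0.53 for Tet3 and -0.15 to 0.046 for Tdg.

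Levels in control input depended on the length. CPM per kb of the longest transcript and of coding length were 83.6 and 127.8 for Uhrf1, 49.5 and 59.75 for Dnmt1, 54.8 and 79.0 for Dnmt3l, 29.4 and 46.9 for Tet2, 7.95 and 28.3 for Dnmt3a, 5.15 and 14.3 for Tdg and 1.09 and 2.20 for Tet3, and of coding length 109.8 for Tet1 and 28.6 for Dnmt3b. Tdg was 3.52 with library-size scaling.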
